A study of Homo sapiens and Mus musculus with 16 samples.

Results

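The nucleoporins and nuclear transport receptors were followed through P-body-seq, in which P-bodies, condensates of untranslated mRNA and protein in the cytoplasm, are sorted by their GFP-LSM14A signal from lysed cells and their RNA is set against cytoplasmic RNA. Members were chosen by symbol alone: NUP followed by a number, the karyopherins KPNA and KPNB, the importins IPO, the exportins XPO, and TPR, RANBP2, TNPO1, TNPO2 and TNPO3. This gave 46 of the 22286 genes in the human table and 43 of the 15881 genes in the mouse table. The mouse table had no match for KPNA5, NUP42 and NUP58, and it lists mouse Nup58 under another symbol, Nupl1. The 16 libraries covered 4 cell types with 2 P-body and 2 cytoplasm libraries each. HEK293T, a human embryonic kidney line, was line HEK293T-LSM14a-GFP. Liver bud progenitors and day 20 neurons both came from UCLA4-LSM14a-GFP, a human embryonic stem cell line with GFP-LSM14A integrated at the AAVS1 locus, and mouse embryonic stem cells (mESC) were line KH2-LSM14a-GFP in serum-LIF. All libraries thus came from cells that carried the tagged P-body protein, and no cells without it were part of the comparison. HEK293T and mESC libraries were labelled total RNA and the other libraries polyA RNA, so library chemistry and cell type cannot be told apart between these pairs. The fraction called cytoplasm was, per the study's methods, a resuspended pellet, spun from the lysate after nuclei had been removed. RNA that stayed in the supernatant was therefore not measured. The cytoplasm libraries came from an aliquot of this fraction, from which the particles were then sorted. It still held P-bodies, so a ratio of P-body to cytoplasm compares a part with its whole.

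The nuclear pore complex is a ring-shaped channel built from many copies of each of its nucleoporins. An outer ring (the Y complex) and an inner ring form its scaffold, a membrane ring anchors it in the nuclear envelope, nucleoporins rich in phenylalanine-glycine repeats fill the central channel, and filaments and a basket extend into cytoplasm and nucleus. Transport receptors carry cargo through that channel under control of the small GTPase Ran. Importin alpha proteins (the KPNA genes) bind a classical nuclear localization signal and are carried by importin beta (KPNB1), other import receptors bind cargo directly, and exportins carry proteins and RNAs out. These proteins act at the pore, whereas the measurements here concern their mRNAs in sorted P-bodies and in the pelleted fraction called cytoplasm.

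Library totals ranged from 6368953 to 17972284 counts, and 3 counts, taken as the floor of detection, corresponded to 0.167 to 0.471 CPM (counts scaled to library size). Members summed to between 4699 and 12010 CPM per library. The lowest member count in any library was 7, so every member was detected in every library of its table. Replicates correlated over the members with a Spearman rho between 0.99 and 0.998, although across all genes the neuron P-body replicates stood apart with a rho of 0.919 against 0.982 to 0.992 in the other groups. The 10 neuron markers summed to 11540 and 12250 CPM in neuron cytoplasm. In liver bud progenitor cytoplasm the 10 liver bud markers reached 424 and 439 CPM, ALB was at 0 counts, and the 8 pluripotency markers stood at 1653 and 1686 CPM. The same liver bud list was lower in the other human cytoplasm libraries, at 4.36 to 4.64 CPM in neurons and 11.7 to 13.2 CPM in HEK293T. The liver bud label is therefore kept as the name of the sample and not as a measured identity. A set of 6 nuclear RNAs, of which the mouse table holds 4, was lower in P-bodies than in cytoplasm in every cell type, for example 2115 and 2242 against 8806 and 9924 CPM in HEK293T, and its part in the results was not tested. A member's lower value in a bulk sample can come from fewer cells that express it or from less RNA per cell, and these cannot be told apart.

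For each cell type the fractions were compared by edgeR's quasi-likelihood test, and a gene was called at a Benjamini-Hochberg adjusted p under 0.05. As a whole the members were split between both fractions in every cell type. In HEK293T, 11 of 46 members were enriched in P-bodies and 23 were depleted, shares of 23.9% and 50%. Among all genes tested 19.3% were enriched and 22.8% depleted, while for genes whose mean reached 10 CPM, as that of all 46 members did here, the shares were 44.2% and 38.3%. The median log2 change of the members was -0.16, beside -0.01 for all genes and 0.10 for genes with at least 10 CPM. With RLE size factors in place of TMM the HEK293T split was 17 enriched and 20 depleted.

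In liver bud progenitors 22 members were enriched and 13 depleted (47.8% and 28.3%), against 21.4% and 17.1% of all genes and 47.2% and 27.8% of genes with at least 10 CPM. In neurons 14 were enriched and 13 depleted (30.4% and 28.3%), against 14.6% and 14.1% of all genes and 27% and 33% at that level. In mESC 24 of 43 members were enriched and 13 depleted (55.8% and 30.2%), against 25.8% and 20.6% of all genes and 47.8% and 24.3% at that level. Read against genes with at least 10 CPM, the counts of members were near the background in these 3 cell types. In HEK293T fewer members were enriched and more were depleted than among such genes. This cut-off is a minimum, so these genes were not matched to the members in level. The medians were 0.20, 0.04 and 0.15 in the same order, beside 0.24, -0.19 and 0.20 for genes with at least 10 CPM. Scaling by library size only shifted the all-gene median by -0.13 (HEK293T), -0.18 (liver bud progenitors), 0.17 (neurons) and -0.40 (mESC). The split of members then became 16 enriched and 18 depleted in liver bud progenitors, and 7 and 24 in mESC.

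**Figure D1:**
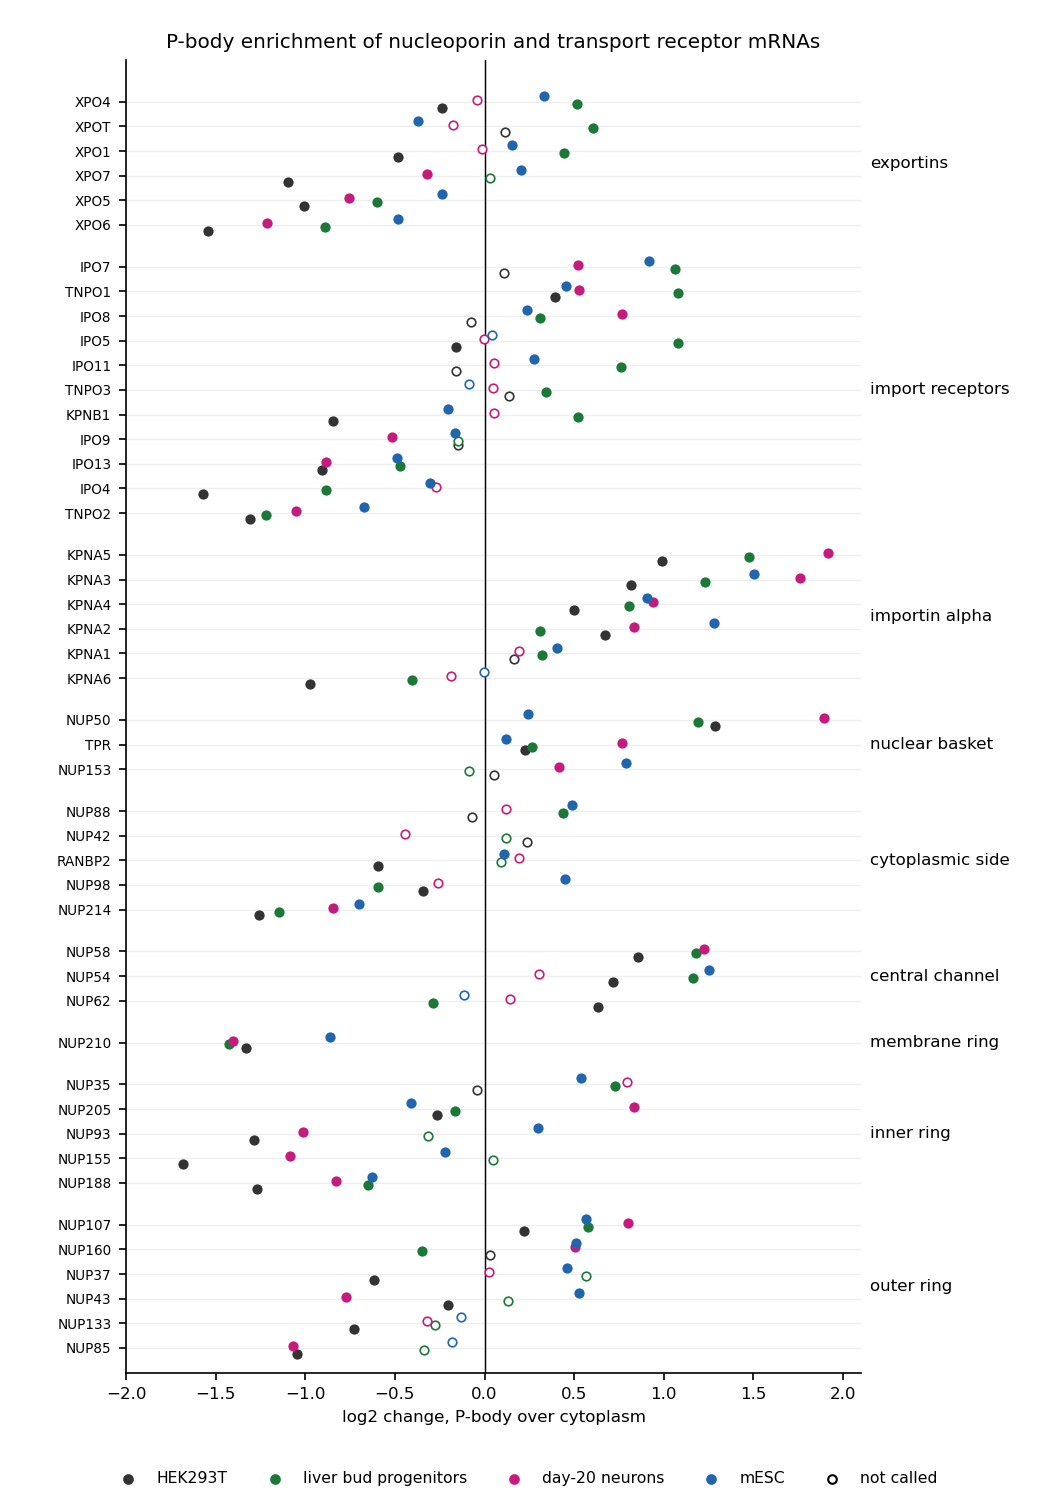
Log2 change of each member between P-bodies and cytoplasm (x axis, TMM scaling), by role, in the 4 cell types; filled points passed an edgeR adjusted p of 0.05 and open points did not. KPNA5 and KPNA3 lie to the right in every cell type that has them, NUP210 and TNPO2 to the left in all 4, and the inner ring spans from -1.68 to 0.83.

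The importin alpha mRNAs lay mostly on the P-body side. In HEK293T 4 of 6 were enriched and 1 depleted, in liver bud progenitors 5 and 1, in neurons 4 and 0, and in mESC 4 of 5 and 0. Of genes with at least 10 CPM 44.2%, 47.2%, 27% and 47.8% were enriched in that order, and 38.3%, 27.8%, 33% and 24.3% depleted. Among all genes tested the shares were 19.3%, 21.4%, 14.6% and 25.8%, and 22.8%, 17.1%, 14.1% and 20.6%. No role was tested against these shares, which are also the background for the counts of the other roles between fractions. KPNA3 (chromosome 13, 49699320 to 49792682, minus strand, hg38), an importin alpha of the same subfamily as KPNA4, had 402 and 422 CPM in HEK293T P-bodies and 242 and 225 in cytoplasm. In liver bud progenitors it had 759 and 761 against 338 and 310.1 CPM, in neurons 359 and 374 against 104 and 113, and Kpna3 in mESC 1169 and 1156 against 422 and 397. The P-body libraries were above the cytoplasm libraries in all 4 cell types without overlap. The log2 changes were 0.82 ± 0.06, 1.23 ± 0.06, 1.76 ± 0.10 and 1.51 ± 0.04 (SE, 4 libraries each), with edgeR adjusted p-values between 1.1e-29 and 3.33e-08.

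KPNA5 (chromosome 6, 116681187 to 116741867, plus strand), a member of the KPNA1 subfamily, had the highest log2 change of all members in liver bud progenitors and in neurons. It had 335 and 327 CPM in HEK293T P-bodies against 174 and 159, 244 and 237 against 90.04 and 82.46 in liver bud progenitors, and 53.3 and 58.6 against 12.7 and 17.0 in neurons. No P-body library overlapped with cytoplasm, and the log2 changes were 0.99 ± 0.06, 1.48 ± 0.07 and 1.92 ± 0.20 (edgeR adjusted p = 1.25e-21, 3.15e-27 and 9.07e-06). KPNA4, also an importin alpha, changed by 0.50, 0.80, 0.94 and 0.91 in HEK293T, liver bud progenitors, neurons and mESC, all called.

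KPNA2 (chromosome 17, 68035636 to 68047364, plus strand), an importin alpha known to be abundant in proliferating and pluripotent cells, had 694 and 689.8 CPM in HEK293T P-bodies and 433 and 436 in cytoplasm. In liver bud progenitors it had 369 and 346 against 292.7 and 284 CPM, in neurons 229 and 239 against 128 and 135, and in mESC 688 and 675 against 274 and 288. Its log2 change was lowest in liver bud progenitors, at 0.31 ± 0.06, and highest in mESC, at 1.28 ± 0.04. With library size only the value in liver bud progenitors was 0.12 and not called. KPNA2 has processed pseudogenes, so the assignment of its reads carries some uncertainty. KPNA1 lay lower, with 0.17 (adjusted p = 0.0624) in HEK293T, 0.32 in liver bud progenitors, 0.19 (adjusted p = 0.393) in neurons and 0.40 in mESC. Its call in liver bud progenitors was lost without P-body replicate 1 (log2 0.28, adjusted p = 0.0504).

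KPNA6 (chromosome 1, 32108056 to 32176563, plus strand), which belongs to the same subfamily as KPNA5, lay on the other side. It had 165 and 157 CPM in HEK293T P-bodies against 319 and 311 in cytoplasm, and 182 and 193 against 250.1 and 247 in liver bud progenitors. These fractions did not overlap, with log2 changes of -0.97 ± 0.06 and -0.40 ± 0.07 (edgeR adjusted p = 1.67e-21 and 3.65e-07). In neurons it had 122 and 115 against 131 and 139.5 CPM, which did not overlap, a log2 change of -0.19 (adjusted p = 0.217). Kpna6 in mESC had 182 and 178 CPM in P-bodies and 183 and 179 in cytoplasm, which overlapped (log2 change -0.00, adjusted p = 0.966).

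**Figure D2:**
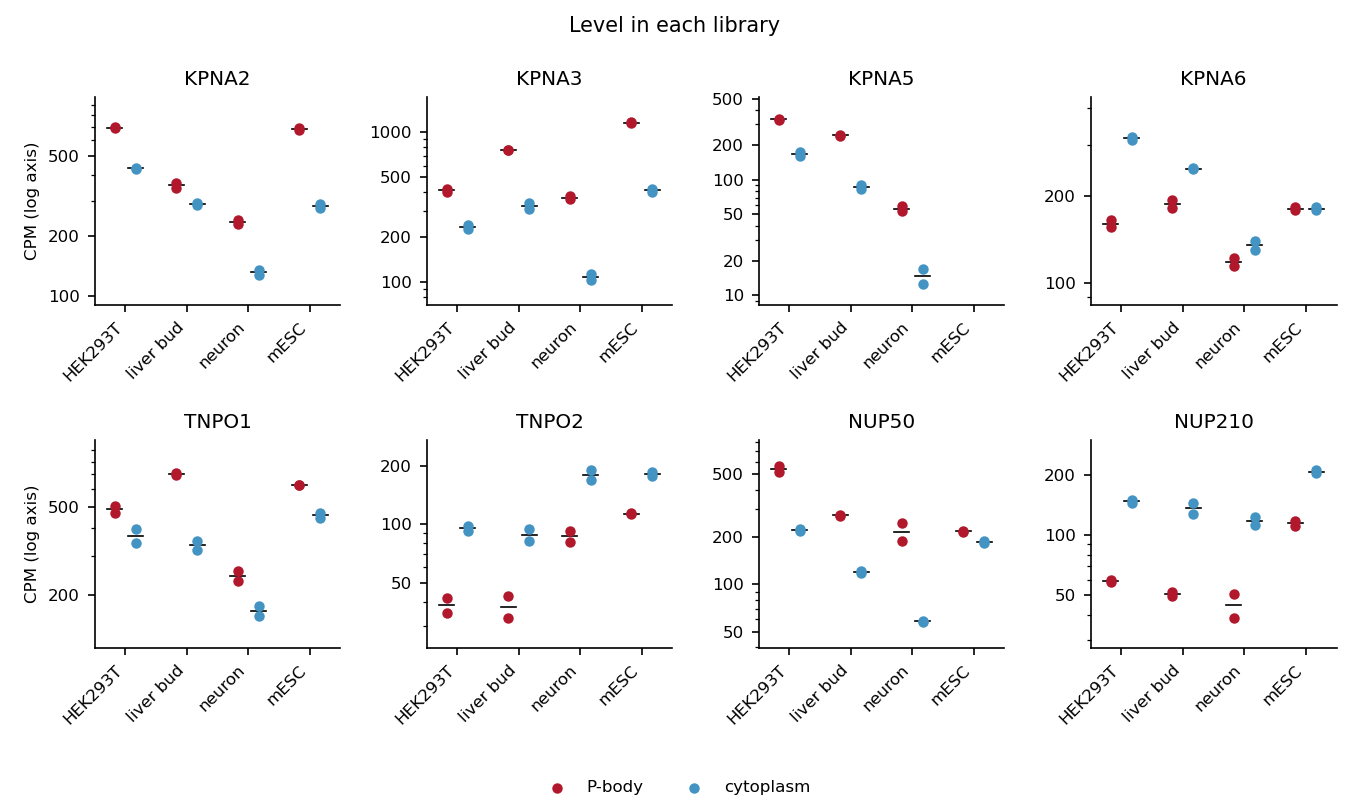
TMM-scaled CPM (log axis) of 8 members in each library, P-body in red and cytoplasm in blue, with the mean of each pair as a short line; cell types were scaled in separate fits. P-body points lie above cytoplasm for KPNA2, KPNA3, KPNA5, TNPO1 and NUP50 and below it for TNPO2 and NUP210, whereas KPNA6 lies below in the 3 human cell types and overlaps in mESC.

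The opposite sides taken by KPNA5 and KPNA6, and by TNPO1 and TNPO2 among the import receptors, were set beside their coding sequences, since both pairs encode close relatives. The pairs were picked after their values were seen. For each pair the ungapped, in-frame window of 90 bases with the most identical bases was read from the longest coding sequence in GENCODE 44 (hg38). Capitals mark G or C at the third position of a codon, the position at which most codons can vary without changing the amino acid.
KPNA5, coding bases 1159 to 1248: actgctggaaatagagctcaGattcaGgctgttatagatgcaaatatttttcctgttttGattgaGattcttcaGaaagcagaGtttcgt
KPNA6, coding bases 1090 to 1179: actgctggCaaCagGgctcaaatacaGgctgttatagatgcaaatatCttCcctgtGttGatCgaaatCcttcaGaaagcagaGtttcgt
TNPO1, coding bases 1399 to 1488: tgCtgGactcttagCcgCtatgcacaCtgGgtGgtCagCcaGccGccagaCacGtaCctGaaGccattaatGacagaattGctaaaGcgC
TNPO2, coding bases 1366 to 1455: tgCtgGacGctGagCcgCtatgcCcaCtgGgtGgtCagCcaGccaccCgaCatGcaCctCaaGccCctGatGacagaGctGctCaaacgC

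In the importin alpha window all 30 codons encoded the same amino acid in both genes. The genes differed at 11 of 90 bases, all at the third codon positions, and 8 of these held G or C only in KPNA6 and 2 only in KPNA5. In the TNPO window 28 of 30 codons encoded the same amino acid, 15 bases differed, 11 of them at the third positions, and 8 held G or C only in TNPO2 and 2 only in TNPO1. Within the windows G or C stood at 20.0% of the third positions in KPNA5, 40.0% in KPNA6, 66.7% in TNPO1 and 86.7% in TNPO2. Over the whole coding sequence, G or C stood at 28.1% of the third positions in KPNA5 and 54.9% in KPNA6, and at 38.3% in TNPO1 and 78.9% in TNPO2. The TNPO1 window was thus much richer in G or C than the gene's whole coding sequence. The windows describe these pairs and do not bear on why their mRNAs differ.

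The 11 import receptors were split between the fractions in every cell type. In HEK293T 1 was enriched and 5 depleted, in liver bud progenitors 7 and 3, in neurons 3 and 3, and in mESC 4 and 5. TNPO1 (chromosome 5, 72816312 to 72916733, plus strand), transportin-1, an import receptor for RNA-binding proteins, had 470.1 and 504 CPM in HEK293T P-bodies against 395 and 345 in cytoplasm. It had 714 and 698 against 351 and 318 CPM in liver bud progenitors, 232 and 257 against 162 and 178 in neurons, and 627 and 625 against 445 and 469 in mESC. The fractions did not overlap in any cell type, and the log2 changes were 0.40 ± 0.06, 1.08 ± 0.06, 0.53 ± 0.10 and 0.45 ± 0.04 (edgeR adjusted p between 1.65e-26 and 0.00137).

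TNPO2 (chromosome 19, 12699201 to 12724011, minus strand), transportin-2, had 41.76 and 34.99 CPM in HEK293T P-bodies against 92.2 and 97.7 in cytoplasm. It had 32.8 and 42.7 against 94.3 and 81.7 CPM in liver bud progenitors, 81.0 and 92.3 against 190.3 and 168 in neurons, and 112 and 114 against 184 and 176 in mESC. Every P-body library was below every cytoplasm library of its cell type. The log2 changes were -1.31 ± 0.09, -1.22 ± 0.10, -1.05 ± 0.12 and -0.67 ± 0.06 (edgeR adjusted p between 2.5e-19 and 1.63e-05).

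KPNB1 (chromosome 17, 47649476 to 47685505, plus strand), the importin beta that carries importin alpha and its cargo, changed side between cell types. It had 339 and 352 CPM in HEK293T P-bodies against 634 and 608 in cytoplasm, and 643 and 649 against 451 and 448 in liver bud progenitors. Both differences were without overlap, at -0.85 ± 0.05 and 0.52 ± 0.05 on the log2 scale (edgeR adjusted p = 5.39e-21 and 2.49e-13). In neurons 317 and 339.8 CPM overlapped with 306 and 327 (0.06, adjusted p = 0.665), and in mESC Kpnb1 changed by -0.20 ± 0.04. IPO7, an import receptor that also carries ribosomal proteins and histones, had a log2 change of 0.11 (adjusted p = 0.103) in HEK293T and rose by 1.06 (liver bud progenitors), 0.52 (neurons) and 0.92 (mESC). Its HEK293T value was -0.02 with library size only, and its neuron call was lost without cytoplasm replicate 1 (0.39, adjusted p = 0.0981). At the ends of the group's range stood IPO4 in HEK293T (-1.57), TNPO2 in the other 3 cell types, TNPO1 in HEK293T, IPO5 in liver bud progenitors (1.08), IPO8 in neurons (0.77) and IPO7 in mESC. IPO4, an import receptor of histones and ribosomal proteins, had 20.9 and 4.75 CPM in the neuron P-body libraries, which spanned its cytoplasm values of 14.6 and 16.1. Its neuron log2 change of -0.27 (adjusted p = 0.704) moved to -1.69, and was called, without P-body replicate 1. The neuron call of IPO8, a relative of IPO7, was lost without either cytoplasm library (0.75 and 0.76, adjusted p = 0.108 and 0.0969).

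Of the 6 exportin mRNAs 5 were depleted and 0 enriched in HEK293T, where 38.3% of genes with at least 10 CPM were depleted. In liver bud progenitors 3 were enriched and 2 depleted, in neurons 0 and 3, and in mESC 3 and 3. The HEK293T call of XPO4 (-0.24) was lost with DESeq2 (-0.15, adjusted p = 0.187), with RLE, with all 12 human libraries in a single fit and without 3 of the 4 libraries in turn, which left 4 depleted. That of XPO7 in neurons was lost in 7 of 11 alternatives, among them the omission of 3 single libraries (-0.38 to -0.24, adjusted p up to 0.289), which left 2. XPO6 (chromosome 16, 28097976 to 28211965, minus strand), the exportin of actin-profilin, had 107 and 99.2 CPM in HEK293T P-bodies against 292.8 and 309 in cytoplasm. It had 87.1 and 88.5 against 161 and 165 CPM in liver bud progenitors, 126 and 118 against 299.6 and 266 in neurons, and 189 and 199.8 against 267 and 276 in mESC. It was the most depleted exportin in all 4 cell types, without overlap, at -1.54 ± 0.06, -0.89 ± 0.08, -1.22 ± 0.10 and -0.48 ± 0.05 (edgeR adjusted p between 1.72e-29 and 1.38e-06). XPO5 (chromosome 6, 43522334 to 43576038, minus strand), which exports microRNA precursors, was also depleted in all 4, by -1.01, -0.60, -0.76 and -0.24. Exons of XPO5 overlap those of POLR1C on the other strand, and whether the counting used strand is not given in the sources used here.

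XPO1 (chromosome 2, 61476032 to 61538741, minus strand), also called CRM1, the main exportin of proteins with a leucine-rich export signal, had 115 and 123 CPM in HEK293T P-bodies against 176 and 156 in cytoplasm. In liver bud progenitors it had 226 and 244 against 171 and 175 CPM, so the libraries separated in the opposite direction. The log2 changes were -0.48 ± 0.07 and 0.44 ± 0.07 (edgeR adjusted p = 1.93e-08 and 6.95e-08). In neurons 66.3 and 64.8 CPM lay within 62.1 and 70.4, with a log2 change of -0.02 (adjusted p = 0.946) that was 0.15 with library size only. Xpo1 in mESC changed by 0.15 ± 0.05, which became -0.25 with library size only and was not called without P-body replicate 1 (0.13, adjusted p = 0.123). The highest exportin was XPOT, the tRNA exportin, in HEK293T (0.11, adjusted p = 0.179) and in liver bud progenitors (0.60), and XPO4 in mESC (0.33).

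In the scaffold of the pore most members were called depleted in HEK293T in the stated setting, where 38.3% of genes with at least 10 CPM were. The calls were divided in the other cell types. Of the 6 outer ring members 1 was enriched and 4 depleted in HEK293T, 1 and 1 in liver bud progenitors, 2 and 2 in neurons, and 4 and 0 in mESC. Of the 5 inner ring members 0 were enriched and 4 depleted in HEK293T, 1 and 2 in liver bud progenitors, 1 and 3 in neurons, and 2 and 3 in mESC. The rings were not tested against each other. NUP107, a Y complex subunit, was enriched in all 4 cell types, by 0.22, 0.58, 0.80 and 0.56 on the log2 scale. Its HEK293T call was lost without P-body replicate 2 (0.14, adjusted p = 0.269) and without cytoplasm replicate 2 (0.18, adjusted p = 0.0585). NUP85, in the same complex, stood at the low end of the outer ring in HEK293T (-1.05), in neurons (-1.07) and in mESC (-0.18, adjusted p = 0.128), and its neuron call was lost without cytoplasm replicate 1 (-1.23, adjusted p = 0.0526) or 2 (-0.92, adjusted p = 0.21). NUP160 marked the low end in liver bud progenitors (-0.35), where its call was lost without P-body replicate 1 (-0.29, adjusted p = 0.0713).

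NUP155 (chromosome 5, 37288137 to 37371106, minus strand), an inner ring protein, was the most depleted member in HEK293T. It had 72.5 and 73.1 CPM in HEK293T P-bodies against 238 and 229 in cytoplasm, and changed by -1.68 ± 0.07 on the log2 scale (edgeR adjusted p = 5.13e-30). In liver bud progenitors 102 and 98.3 CPM overlapped with 101 and 92.7, at 0.05 (adjusted p = 0.723). In neurons 28.9 and 27.9 against 55.2 and 65.2 CPM gave -1.08 ± 0.16, and in mESC Nup155 changed by -0.22, a call lost without P-body replicate 2 (-0.13, adjusted p = 0.127). NUP188, a large scaffold protein of the same ring, was depleted in all 4 cell types, by -1.27, -0.65, -0.83 and -0.63. NUP205, the other large inner ring protein, had 421 and 436 against 509.9 and 518 CPM in HEK293T and 229 and 213 against 127 and 121 in neurons. Its libraries separated in opposite directions, at -0.26 and 0.83 on the log2 scale, beside -0.17 in liver bud progenitors and -0.41 in mESC. The liver bud call of NUP205 was lost without either P-body library (-0.15 and -0.18, adjusted p = 0.221 and 0.122).

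NUP210 (chromosome 3, 13316235 to 13420322, minus strand), the only member of the membrane ring matched by the rule, had 59.8 and 58.2 CPM in HEK293T P-bodies against 146 and 151 in cytoplasm. It had 51.7 and 49.9 against 127 and 146 CPM in liver bud progenitors, 50.9 and 38.6 against 124 and 113 in neurons, and 111 and 119 against 212 and 205 in mESC. All P-body libraries were below all cytoplasm libraries of the same cell type. The log2 changes were -1.33 ± 0.08, -1.43 ± 0.09, -1.40 ± 0.15 and -0.86 ± 0.06 (edgeR adjusted p between 2.21e-23 and 1.07e-05), the lowest of all members in liver bud progenitors, neurons and mESC.

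The central channel members NUP58 and NUP54, which form a complex with NUP62, were on the P-body side. NUP58 (chromosome 13, 25301524 to 25365390, plus strand) had 492 and 489 CPM in HEK293T P-bodies against 269 and 274 in cytoplasm, 241 and 237 against 104 and 108 in liver bud progenitors, and 78.3 and 84.6 against 33.0 and 36.7 in neurons. The fractions did not overlap, and the log2 changes were 0.85 ± 0.06, 1.18 ± 0.07 and 1.23 ± 0.15. Mouse Nupl1, outside the rule, changed by 1.31 ± 0.06. NUP54 changed by 0.71, 1.16 and 1.25 in HEK293T, liver bud progenitors and mESC and by 0.30 (adjusted p = 0.437) in neurons. NUP62 had 238 and 224 CPM in HEK293T P-bodies against 142 and 155 in cytoplasm, and 72.8 and 66.0 against 83.8 and 85.6 in liver bud progenitors, log2 changes of 0.63 ± 0.06 and -0.29 ± 0.09. The liver bud call was lost without P-body replicate 2 (-0.22, adjusted p = 0.16). In neurons and mESC NUP62 had values of 0.14 and -0.11 (adjusted p = 0.447 and 0.106). Exons of NUP62 overlap those of ATF5 on the other strand and of IL4I1 on the same strand, and exons of NUP54 those of ART3. Exons of IPO4, IPO9, IPO11, NUP43, NUP88, NUP98, NUP188 and TPR also overlap those of other genes. The same holds for mouse Nup35, Nup62, Nup88, Nup214, Tnpo3 and Tpr. For IPO11, NUP98 and mouse Nup35 and Nup62 an overlap lies on the same strand. Reads in all these stretches are uncertain.

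On the cytoplasmic side of the pore 0 of 5 members were enriched in HEK293T and 3 depleted, with 1 and 2 in liver bud progenitors, 0 and 1 in neurons, and 3 of 4 and 1 in mESC. NUP214 (chromosome 9, 131125573 to 131234663, plus strand), a docking site of mRNA export factors, had 81.6 and 80.4 CPM in HEK293T P-bodies against 190.1 and 198 in cytoplasm. It had 82.3 and 86.9 against 185 and 189.7 CPM in liver bud progenitors, 157 and 163 against 286 and 289 in neurons, and 148 and 144 against 240.2 and 233 in mESC. It was depleted without overlap in all 4, by -1.26 ± 0.07, -1.14 ± 0.08, -0.85 ± 0.09 and -0.70 ± 0.05. RANBP2, the large SUMO ligase of the cytoplasmic filaments, changed by -0.60 in HEK293T and had values of 0.09 (adjusted p = 0.183) and 0.19 (adjusted p = 0.162) in liver bud progenitors and neurons. Ranbp2 in mESC changed by 0.11, a call lost without P-body replicate 1 (0.08, adjusted p = 0.21) or cytoplasm replicate 2 (0.07, adjusted p = 0.146). The human RGPD genes carry near-identical copies of RANBP2, so its human counts are uncertain. NUP98, which sits on both faces of the pore and is cut from a precursor shared with NUP96, changed by -0.34, -0.60 and 0.45 in HEK293T, liver bud progenitors and mESC and had -0.26 (adjusted p = 0.0557) in neurons. NUP88, which binds NUP214, was highest of the group in liver bud progenitors (0.44) and in mESC (0.49), and the first of these calls was lost without P-body replicate 1 (0.33, adjusted p = 0.0549).

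Of the 3 nuclear basket members 2 were enriched in HEK293T and in liver bud progenitors and all 3 in both neurons and mESC. NUP50 (chromosome 22, 45163925 to 45188017, plus strand), which helps release importin alpha from its cargo, had 566 and 515 CPM in HEK293T P-bodies against 219 and 225 in cytoplasm. It had 277 and 271 against 119 and 122 CPM in liver bud progenitors, 245 and 187 against 57.4 and 58.9 in neurons, and 216 and 219.9 against 187 and 182 in mESC. The fractions were apart in all 4 cell types, by 1.29 ± 0.06, 1.19 ± 0.07, 1.89 ± 0.13 and 0.24 ± 0.05 on the log2 scale (edgeR adjusted p between 6.92e-28 and 0.000286). With library size only the mESC value turned to -0.16 and was called depleted. TPR (chromosome 1, 186311652 to 186375693, minus strand), the coiled-coil protein of the basket, had log2 changes of 0.23, 0.27, 0.77 and 0.12, all called. The HEK293T call was lost without P-body replicate 2 (0.17, adjusted p = 0.0532), the mESC call without P-body replicate 1 (0.08, adjusted p = 0.201), and with library size only the mESC value was -0.29 and called depleted. NUP153, which holds the basket to the pore, had 0.05 (adjusted p = 0.477) in HEK293T and -0.09 (adjusted p = 0.38) in liver bud progenitors, and rose by 0.42 (neurons) and 0.79 (mESC). Its neuron call was lost without cytoplasm replicate 1 (0.41, adjusted p = 0.0947) or 2 (0.40, adjusted p = 0.101), and its HEK293T value was -0.08 with library size only.

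Across the 3 human cell types 9 of 46 members were enriched in all, where 8.44% of all genes tested were, and 7 were depleted in all, where 5.77% were. Among genes whose mean reached 10 CPM in each of these cell types, as did 43 members including all 9 and all 7, the shares were 26.3% and 15.1%. Both counts of members were near that background, which sets a minimum and does not match the members in level. The enriched members were KPNA2, KPNA3, KPNA4, KPNA5, NUP107, NUP50, NUP58, TNPO1 and TPR. The depleted members were IPO13, NUP188, NUP210, NUP214, TNPO2, XPO5 and XPO6. All 7 of the latter, and 7 of the 9 enriched members, had the same call in mESC, while the other two enriched members had no mouse match. Under every alternative setting tried, 6 of the 9 enriched and all 7 depleted members kept their calls in the 3 human cell types. In all 4 cell types KPNA3 and KPNA4 did so among the enriched, and NUP188, NUP210, NUP214, TNPO2, XPO5 and XPO6 among the depleted. IPO13 lost its mESC call with DESeq2 and without replicate 1 of either fraction (-0.33 and -0.36, adjusted p = 0.24 and 0.163). Conversely, 14 of 43 members were called in opposite directions in at least 2 of the cell types, and for 4 of them (KPNB1, NUP205, XPO1 and XPOT) both of the opposite calls held under every alternative. The share of all genes with such opposite calls was not counted, so the 14 are not read as a trait of the members. Across members, the log2 change of HEK293T ranked with that of neurons at a Spearman rho of 0.825 and of liver bud progenitors at 0.743 (46 members), and with mESC at 0.686 (43 members). The same rho over genes that reached 20 CPM in both was 0.835, 0.536 and 0.723. These are descriptions across genes, which are not independent replicates, and genes share depth and base composition between libraries.

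Base composition moved with these values. The share of G or C at the third codon positions ranged from 28.1% to 42.1% in the 9 members enriched in all 3 human cell types, with a median of 35%, and from 44.6% to 78.9% in the 7 depleted members, with a median of 65.1%, so these ranges did not overlap. The other 30 members had a median of 40.8% and a range from 26.7% to 70.6%. Across all 46 members the log2 change fell with this share at a Spearman rho of -0.557 (HEK293T), -0.686 (liver bud progenitors) and -0.595 (neurons), and over 43 members at -0.708 (mESC). Genes with at least 20 CPM had a rho of -0.481, -0.648, -0.671 and -0.623 in the same order, so the relation was not particular to the members. NUP155, with 34.7% and -1.68 in HEK293T, and NUP62, with 69.5% and 0.63, lay far from that trend there. The share of G or C over the whole longest transcript also tracked the log2 change. Its rho among members was -0.641 (HEK293T), -0.849 (liver bud progenitors), -0.646 (neurons) and -0.645 (mESC). These were stronger than for the third positions in the human cell types and weaker in mESC. The background at the 20 CPM minimum gave -0.51, -0.724, -0.684 and -0.717 in that order. The relation was thus not confined to the third codon positions. Coding length also moved with the log2 change among members, with a rho of -0.48, -0.492, -0.305 and -0.465, whereas over genes that reached 20 CPM it was 0.203, -0.297, 0.094 and -0.034. The length of the longest transcript did not show this among members in the human cell types. Its rho was 0.05, 0.118, 0.12 and -0.297 among members, and 0.219, -0.137, 0.149 and 0.128 over genes that reached 20 CPM. The part of base composition and of length in the fraction differences was not tested.

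**Figure D3:**
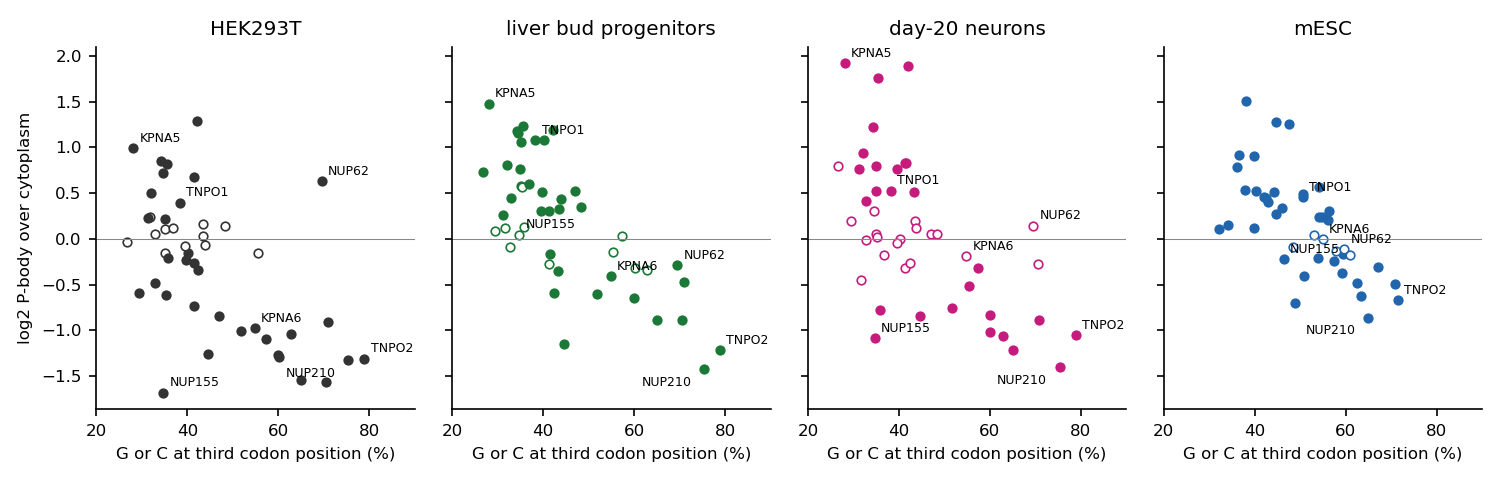
Log2 change between P-bodies and cytoplasm (y axis) against the percentage of G or C at the third codon positions in the longest coding sequence (x axis) for each member, with 1 panel per cell type; filled points were called by edgeR. Values fall from KPNA5 (28.1%) at the upper left to TNPO2 (78.9%) and NUP210 (75.4%) at the lower right of the human panels, and NUP155 and NUP62 lie away from this trend in HEK293T.

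Liver bud progenitors and neurons share their parent line and library chemistry, so the difference in P-body enrichment between them was tested as an interaction over 8 libraries. Higher enrichment in neurons was called for 8 of 46 members, where 9.21% of all genes were, and higher enrichment in liver bud progenitors for 10, where 8.5% were. For genes with at least 10 CPM these shares were 15.9% and 18.4%. All 3 basket members were in the first set, with differences of 0.70 ± 0.16 for NUP50, 0.49 ± 0.08 for TPR and 0.49 ± 0.12 for NUP153 on the log2 scale (edgeR adjusted p = 0.00614, 0.000722 and 0.00833). KPNA2 (0.52 ± 0.11), KPNA3 (0.52 ± 0.10) and NUP205 (0.99 ± 0.12, adjusted p = 2.6e-05) were called in the same direction. None of the import receptors and exportins was called in that direction, by edgeR in its stated setting, while 5 of 11 and 2 of 6 were called as more enriched in liver bud progenitors. These role counts moved strongly with the processing. They were 1 and 0 with library size only, 6 and 5 with a replicate block, 7 and 5 with all 12 human libraries in a single fit, and ranged from 3 to 8 and from 0 to 6 when single libraries were left out, and 1 import receptor was called higher in neurons with library size only, with filterByExpr and without neuron P-body replicate 2. IPO5, an import receptor of ribosomal proteins and histones, differed by -1.09 ± 0.12 (adjusted p = 1.15e-05), and NUP155 by -1.14 ± 0.17 (adjusted p = 0.00019). KPNB1, TNPO1, IPO7 and XPO1 differed by -0.47, -0.56, -0.55 and -0.47. NUP210 differed by 0.02 ± 0.19 (adjusted p = 0.998), a value whose sign turned in several settings.

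**Figure D4:**
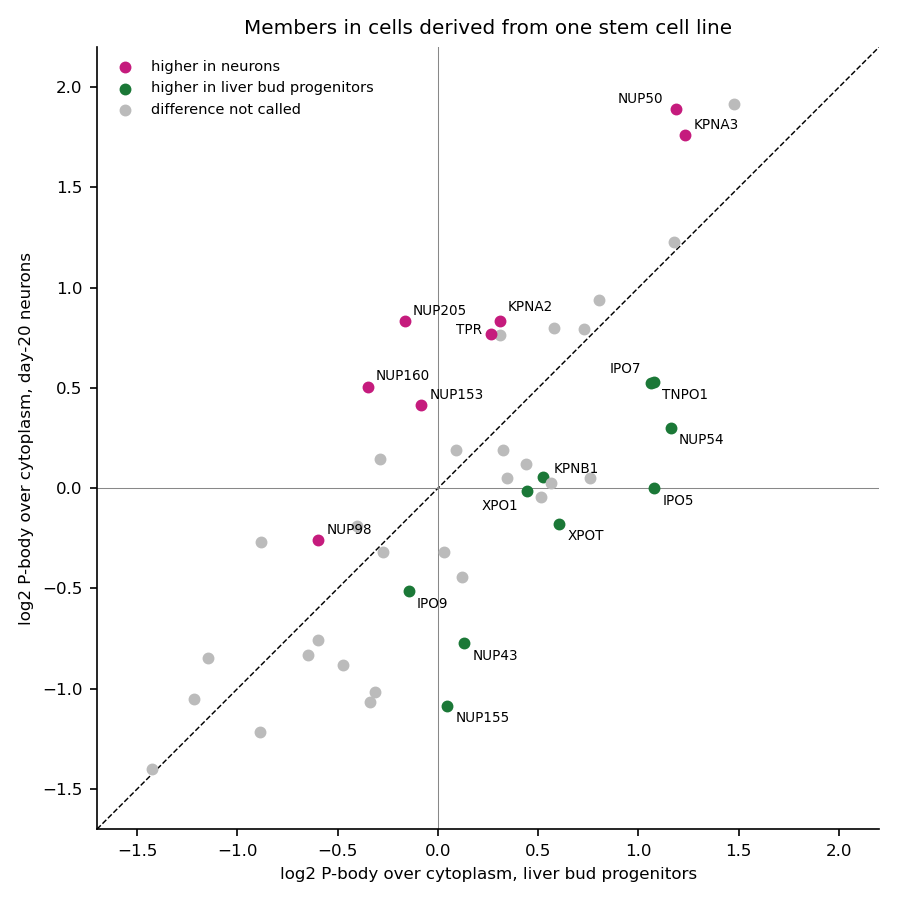
Log2 change between P-bodies and cytoplasm in neurons (y axis) against liver bud progenitors (x axis) for the 46 members, with the line of equal values dashed; coloured points passed the interaction test of edgeR. The basket members NUP50, TPR and NUP153 lie above the line, and IPO5 (1.08 against -0.00) and NUP155 (0.05 against -1.08) below it.

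These counts depended on scaling and on single libraries. With library size only, where the median of all genes moved by 0.35, 16 members were called higher in neurons against 2 for liver bud progenitors, and with filterByExpr 13 against 6. The 10 members called higher in liver bud progenitors became 6 and 4 without liver bud P-body replicates 1 and 2, 5 without either liver bud cytoplasm library, and 18 and 19 without neuron P-body replicates 1 and 2. The 8 members higher in neurons became 5 without either neuron cytoplasm library. The call of NUP153 was lost without liver bud P-body replicate 2 and without either neuron cytoplasm library (0.39 to 0.46, adjusted p = 0.0537 to 0.0791), and that of KPNA3 without neuron cytoplasm replicate 1 (0.39, adjusted p = 0.0535). Those of XPO1 and IPO7 were lost without 3 and 2 of the libraries, with adjusted p up to 0.139 and 0.0708. Those of NUP43, NUP54 and XPOT were each lost without 5 of the 8 libraries in turn (adjusted p up to 0.151, 0.12 and 0.0735), and those of NUP160 and IPO9 without 3 (adjusted p up to 0.0999 and 0.0899). NUP98 was called at 0.33 (adjusted p = 0.0468) and lost without each of the 8 libraries in turn. Only 6 of the 18 calls held under every alternative tried.

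In the cytoplasm libraries most member mRNAs were lower in neurons than in liver bud progenitors. Of 46 members 31 were lower and 8 higher in neurons, where 25.8% and 26% of all genes and 36.8% and 44.3% of genes with at least 10 CPM were, and the median log2 difference was -0.49, beside -0.16 for all genes and 0.14 for genes with at least 10 CPM. Marker lists moved between the same libraries. The 8 pluripotency markers summed to 1653 and 1686 CPM in liver bud cytoplasm and 81.1 and 82.3 in neuron cytoplasm, the 8 neural progenitor and cycling markers to 2980 and 2989 against 1746 and 1848, and the 10 neuron markers to 524 and 563 against 11540 and 12250, and the part of cell state in the members' differences was not tested. All 6 importin alpha and all 3 basket members were lower. KPNA5 had 13.7 and 18.4 CPM in neuron cytoplasm against 83.9 and 77.1 in liver bud progenitors, a log2 difference of -2.33 ± 0.14 (edgeR adjusted p = 2.91e-25). KPNA3 had 112 and 122 against 315 and 290 CPM (-1.37 ± 0.08), and IPO7 differed by -1.39, XPO1 by -1.17 and RANBP2 by -1.06. The KPNA1 call was lost without either liver bud library and without neuron replicate 1 (-0.30 to -0.15, adjusted p = 0.119 to 0.356).

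The 8 members higher in neuron cytoplasm were IPO9, IPO13, NUP62, NUP93, NUP214, TNPO2, XPO5 and XPO6. IPO13, an import receptor that also exports cargo, had 129 and 125 CPM in neuron cytoplasm against 36.3 and 38.6 in liver bud progenitors, and TNPO2 had 205 and 182 against 87.9 and 76.4. No libraries overlapped, and the log2 differences were 1.76 ± 0.11 and 1.24 ± 0.09 (edgeR adjusted p = 1.56e-24 and 8.53e-20). NUP62 differed by 0.51 and XPO5 by 0.55, both calls being lost with library size only, which moved the median of all genes by -0.37. Because these cytoplasm libraries also enter the P-body ratios of both cell types, the ratios were not compared with these differences. HEK293T shares no library with them. Across members its log2 change ranked with the neuron to liver bud difference in cytoplasm at a Spearman rho of -0.444 (46 members), beside -0.372 for genes with at least 20 CPM.

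Genes of the same pathway that the symbols did not match gave a mixed picture. Of 14 other nucleoporins and pore-associated genes 3 were enriched and 7 depleted in HEK293T, 4 and 6 in liver bud progenitors, 1 and 3 in neurons, and 6 and 2 of 13 in mESC. Of 12 genes of the Ran cycle and other carriers 3 were enriched and 7 depleted in HEK293T, 7 and 2 in liver bud progenitors, 2 and 4 in neurons, and 3 and 3 in mESC. Of 15 mRNA export genes 3 and 8, 4 and 3, and 1 and 2 were called in the human cell types in that order, and 4 and 5 of 14 in mESC. In the order HEK293T, liver bud progenitors, neurons and mESC, 19.3%, 21.4%, 14.6% and 25.8% of all genes tested were enriched. Depleted were 22.8%, 17.1%, 14.1% and 20.6%. For genes with at least 10 CPM these shares were 44.2%, 47.2%, 27% and 47.8%, and 38.3%, 27.8%, 33% and 24.3%. Some listed genes lay below 10 CPM, such as NXT1 at 1.15 CPM in liver bud progenitors, so neither set of shares matches the lists in level. Among membrane nucleoporins of that list POM121 was depleted in all 4 cell types, by -1.34, -1.05, -0.85 and -0.89, whereas NDC1 and TMEM33 went both ways. NDC1 was depleted in HEK293T (-0.58) and enriched in liver bud progenitors (0.89) and mESC (0.40), with -0.39 (adjusted p = 0.459) in neurons, and TMEM33 changed by -0.74 (HEK293T), 0.63 (liver bud progenitors) and 1.32 (mESC), with -0.80 (adjusted p = 0.164) in neurons. AHCTF1, which recruits the Y complex to chromatin, was enriched in all 4 by 0.43, 0.65, 1.24 and 0.40. RAN itself, which powers the receptors, changed by -1.35, 0.63, -0.74 and -0.51, and CSE1L, the export receptor that returns importin alpha to the cytoplasm, by -0.85 and 0.74 in HEK293T and liver bud progenitors and 0.69 in mESC, with -0.15 (adjusted p = 0.489) in neurons. These 6 genes were picked after their values were seen.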

How the data were processed

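RNA from sorted P-bodies and from cytoplasm of 4 cell types was sequenced. Deposited values were raw read counts, 1 whole number per symbol and library, for hg38 and mm10 (UCSC refGene annotation). Per the study's methods snapTotal-seq reads went through the nf-core pipeline and salmon, which divides reads among near-identical copies, and Smart-seq reads through hisat2 and featureCounts. Which of these made the polyA columns is not given in the sources used here. Genes under 10 reads over all samples had been removed. The authors' tables of DESeq2 fold changes and adjusted p-values were not used.

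Groups came from the labels. The study describes both samples of a group as biologically independent, without saying what separated them, and p-values measure the spread between these libraries. Each cell type was fitted alone with edgeR 4.0.16 in R 4.3.3 (glmQLFit, TMM, genes with any count, two-sided, Benjamini-Hochberg over all genes). An interaction over 8 libraries and a cytoplasm comparison joined neurons and liver bud progenitors. CPM are TMM-scaled within each fit, ± is the SE of a log2 change, and library pairs are printed as replicate 1 and replicate 2. Detection floors account for counting error alone, since these reads carry no molecular identifiers. On simulated counts in which 200 genes were shifted by a log2 of 1, the procedure recovered 100% in HEK293T (21587 genes), 99.5% in liver bud progenitors (21611), 90% in neurons (21873), 100% in mESC (15881), 74.5% in the interaction (22247) and 100% in the cytoplasm comparison (21572), with 17 to 31 false calls. In each comparison the false calls were a larger share of all calls than the 0.05 set by the adjusted p. Only these 200 genes, all with at least 20 CPM, were shifted, in random directions. The simulation therefore does not test the scaling where many genes differ between fractions, as in these data.

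Members, roles, pathway lists, markers and the naming rule were chosen with earlier results of these data known. Per fraction comparison the rule names the 3 enriched and 3 depleted members with the smallest p whose groups did not overlap and whose mean reached 20 CPM (2 per direction for the interaction and the cytoplasm). It adds 12 members named throughout, the ends of each role's range and all importin alpha members. Other members are named where a count is spelled out, chosen after their values were seen. Alternatives were DESeq2 1.42.0, RLE factors, library size only, filterByExpr, ribosomal RNA genes left out, a replicate block, all 12 human libraries in a single fit, and leaving out each library, where a lone library is assumed to vary like the other group. Coordinates, coding sequences and exon overlaps came from GENCODE 44 and M21, which matched all members. Proteins were not analysed here.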

Additional observations from a re-analysis of the deposited data

Results flagged for a closer look

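The P-body enrichment of 18 members differed between neurons and liver bud progenitors by the interaction test of edgeR. Higher enrichment in neurons was found for NUP205 (a log2 difference of 0.99), NUP160 (0.85), NUP50 (0.70), KPNA3 (0.52), KPNA2 (0.52), TPR (0.49), NUP153 (0.49) and NUP98 (0.33). Higher enrichment in liver bud progenitors was found for NUP155 (-1.14), IPO5 (-1.09), NUP43 (-0.91), NUP54 (-0.87), XPOT (-0.78), TNPO1 (-0.56), IPO7 (-0.55), KPNB1 (-0.47), XPO1 (-0.47) and IPO9 (-0.38). The calls of NUP43, NUP54 and XPOT were each lost without 5 of the 8 libraries in turn, those of NUP153, NUP160, IPO9 and XPO1 without 3, that of IPO7 without 2, that of KPNA3 without 1 and that of NUP98 without each of the 8.

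A further set of 14 members, some of them also in the first set, had calls in opposite directions, without overlap of the libraries, in cell types that were not tested against each other. The differences below were therefore not tested, and library chemistry, species or both also differ within each of these pairs. The share of all genes with such opposite calls was not counted. Between HEK293T and liver bud progenitors the log2 changes were -0.16 and 1.08 for IPO5, -0.85 and 0.52 for KPNB1, 0.63 and -0.29 for NUP62, -0.48 and 0.44 for XPO1, and -0.24 and 0.52 for XPO4. Between HEK293T and mESC they were -0.62 and 0.46 for NUP37, -1.29 and 0.30 for NUP93, -0.60 and 0.11 for RANBP2, and -1.10 and 0.20 for XPO7. Between liver bud progenitors and mESC they were -0.35 and 0.51 for NUP160, -0.60 and 0.45 for NUP98, and 0.60 and -0.37 for XPOT. Between neurons and mESC they were 0.83 and -0.41 for NUP205 and -0.77 and 0.53 for NUP43. Both calls held under every alternative for KPNB1, NUP205, XPO1 and XPOT, 4 of the 14. The HEK293T call was lost in 9 of 12 alternatives for IPO5 (-0.07 and adjusted p = 0.435 with DESeq2), 6 of 12 for XPO4 and 2 of 12 for NUP37, the mESC call in 6 of 10 for RANBP2 and 5 of 10 for NUP37, and the neuron call in 7 of 11 for NUP43. The other losses were of 1 alternative each, in mESC with library size only (NUP43, NUP93, NUP98, NUP160 and XPO7) and in liver bud progenitors without P-body replicate 1 (NUP160) or 2 (NUP62).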

How the results depend on the processing

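With 2 libraries a group, a call rests on few samples, and the interaction was the comparison most open to the processing. Of the calls on members, 27 of 34 (HEK293T), 24 of 35 (liver bud progenitors), 19 of 27 (neurons), 16 of 37 (mESC), 6 of 18 (interaction) and 33 of 39 (cytoplasm) held under every alternative tried. The cause of the changes below was not tested.

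The HEK293T median of the members was -0.0692 with DESeq2, -0.0693 with RLE size factors (17 enriched), -0.287 with library size only and -0.0301 when all 12 human libraries shared 1 fit. The other medians with library size only were 0.0121 for liver bud progenitors, 0.202 for neurons, -0.250 for mESC (7 enriched, 24 depleted), 0.205 for the interaction (16 and 2 members) and -0.877 for the cytoplasm. With filterByExpr they were 0.110 for liver bud progenitors and 0.0671 for mESC, and the interaction called 13 and 6 members. The fit of all 12 human libraries called 16 members as more enriched in liver bud progenitors.

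Leaving out each library gave medians of 0.138 to 0.269 in liver bud progenitors, -0.302 to -0.137 in the interaction and -0.557 to -0.44 in the cytoplasm. In the interaction it gave 5 to 9 members more enriched in neurons and 4 to 19 more enriched in liver bud progenitors.

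Over the single-library omissions the values ranged from -0.0044 to 0.104 for KPNB1, -0.0563 to 0.322 for NUP62 and -0.116 to 0.0631 for XPO1 in neurons, from -0.295 to 0.105 for NUP210 and -0.0669 to 0.114 for RANBP2 in the interaction, and from -0.0932 to 0.105 for NUP210 in the cytoplasm. Signs turned with library size only for IPO7 (-0.0216) and NUP153 (-0.0751) in HEK293T, RANBP2 (-0.0960) in liver bud progenitors, Ranbp2 (-0.296), Tpr (-0.286) and Xpo1 (-0.250) in mESC, and XPO5 (0.194) in the interaction. XPO1 in neurons turned to 0.0408 with DESeq2 and with RLE, 0.147 with library size only, 0.0875 with filterByExpr, and 0.0014 and 0.0631 without P-body replicate 2 and cytoplasm replicate 2. KPNB1 in neurons turned to -0.0553 with all 12 human libraries and -0.0044 without cytoplasm replicate 1, and NUP62 to -0.0563 without P-body replicate 1. NUP210 in the interaction turned to -0.0308 without ribosomal RNA genes, -0.0696 with all 12 human libraries, and -0.0811, -0.295 and -0.147 without liver bud cytoplasm replicate 2, neuron P-body replicate 1 and neuron cytoplasm replicate 2. RANBP2 there turned to -0.0597 and -0.0669 without neuron P-body replicate 2 and neuron cytoplasm replicate 1. NUP210 in the cytoplasm turned to -0.0368 with DESeq2, -0.0371 with RLE, -0.384 with library size only, -0.0320 with filterByExpr, -0.0478 with all 12 human libraries, and -0.0932 and -0.0696 without liver bud replicate 1 and neuron replicate 1.

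By the study's methods each sort had its own aliquot of cytoplasm from before sorting, so P-body and cytoplasm libraries may be paired, but no source says that the shared replicate numbers mark these pairs, and with 2 pairs the correlations of -0.153 (HEK293T), 0.0488 (liver bud progenitors), 0.151 (neurons) and 0.0113 (mESC) do not establish a pairing. With a replicate block HEK293T had 11 enriched and 22 depleted members, liver bud progenitors 22 and 13, neurons 15 and 14, and mESC 24 and 13, with 10 and 15 in the interaction and 8 and 30 in the cytoplasm. The crossed pairing in HEK293T, chosen after seeing the data, gave 13 and 24.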
